A study of Mus musculus with 32 samples.

Results

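Zfp genes encode zinc finger proteins, and 143 of them were expressed in P19 cells at the level required here. The members were all protein-coding genes whose symbol is Zfp followed by digits only and whose mean scaled value in the 2 whole-cell control libraries was at least 500. This rule kept 143 of 332 protein-coding Zfp genes, out of 38201 genes in the whole-cell table. The scaled value is the read count of a gene as the authors scaled it between libraries, so it is comparable between libraries for 1 gene but is not corrected for gene length. The members were thus selected on the control whole-cell level, which is given as a description, and whole-cell comparisons share those 2 control libraries with the rule. Just inside the minimum were Zfp408 at a control mean of 503, Zfp534 at 506 and Zfp788 at 511, and just outside were Zfp748 at 494, Zfp248 at 490.0 and Zfp661 at 481. The cytoplasmic libraries played no part in the choice.

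P19 is a mouse embryonal carcinoma line, a pluripotent tumour cell grown as a culture. The cells were transfected for 36 h with an endoribonuclease-prepared siRNA pool (esiRNA) against SRSF1, SRSF2, SRSF3, SRSF4, SRSF5, SRSF6 or SRSF7, each an SR protein that binds pre-mRNA and takes part in splicing, 3′ end formation and mRNA export. Control cells received an esiRNA against GFP, a sequence these cells do not need, so control and knockdown cells alike were transfected for the same time. Poly(A)+ RNA of the whole cell and of the cytoplasmic fraction was sequenced, in replicates A and B, which gives 32 libraries in 16 groups of 2 (8 groups per fraction). For each knockdown, 3 comparisons with the control were made: whole-cell level, cytoplasmic level, and how far the change in the cytoplasm exceeded that of the whole cell (the relative level). All 7 knockdowns of a fraction share the same 2 control libraries.

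The deposited exon-bin reads came to between 38874542 and 72741730 per library. The mRNA of the targeted SR protein was left at 48.8% to 68.7% of the control mean in the whole cell and at 37.8% to 77.0% in the cytoplasm, the highest value in each fraction being Srsf3 and Srsf2, respectively. The summed level of 8 pluripotency markers, Pou5f1 among them, lay between 51262 and 77770 in the whole-cell libraries. Markers of epithelial or mesenchymal cells summed to 6478 to 11141 in the A whole-cell libraries and to 19136 to 27140 in the B libraries, so the libraries named A and B differed. The secretory genes Scgb2b27 and Scgb1b27 were at 0 in every whole-cell library and every B cytoplasmic library, but summed to between 700 and 1173 in 7 of the 8 A cytoplasmic libraries, control included. The exception was the SRSF2 A library, at 0. Because these are bulk samples, fewer cells of a kind and less RNA per cell cannot be told apart.

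A C2H2 zinc finger is a short fold in which a pair of cysteines and a pair of histidines hold a zinc ion, and arrays of such fingers read DNA or, less often, RNA or protein. Many Zfp proteins begin with a KRAB domain, which recruits the corepressor TRIM28 and through it the histone methyltransferase SETDB1, and such proteins silence transposable elements and keep imprinted regions methylated in early embryonic cells. Others, without a KRAB domain, serve as activators, as parts of chromatin complexes, or outside transcription altogether.

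Coding sequences of 139 of the 143 members were found in the GENCODE annotation of the mm9 build (Zfp131, Zfp799, Zfp97 and Zfp960 were not matched). They held 1463 matches to the C2H2 pattern, with a median of 10 and a maximum of 36 per protein, in Zfp142. A KRAB pattern was found in 46 members, called KRAB genes here. Members without it may still hold a KRAB domain that departs from the pattern searched. Fingers were placed in the exons of the transcript with the longest coding sequence. Its last exon encoded 563 of 572 fingers (98.4%) in the KRAB genes. In the 93 members with no KRAB pattern it encoded 460 of 891 (51.6%). The finger array of a KRAB gene is thus contained almost whole in the exon that also carries the 3′ end of the mRNA, and in the control whole cell a median of 78.8% of the reads of such a gene fell in its last exon, against 55.6% for the members without the pattern. Between consecutive fingers a linker of 5 residues often recurs (threonine or serine, glycine, glutamate, lysine or arginine, then proline). It followed 582 of 1357 fingers that lie within 1 exon, 333 of 570 in KRAB genes (58.4%) and 249 of 787 in the others (31.6%).

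The following 30-base stretches of coding sequence show this repeated unit in the members on which the results turn. Zfp871, Zfp445 and Zfp808 had low cytoplasmic ratios, and Zfp444 and Zfp64 had high ones. Zfp113, Zfp369, Zfp523, Zfp568 and Zfp865 were called after a knockdown by at least 1 of the fits below, in level or in a last-exon bin. Each stretch runs 5′ to 3′ on the coding strand and starts at the first histidine codon of a finger. It ends with the 5 linker codons, and both histidine codons are in capitals.
Zfp871, mm9 chr17:32912401-32912430, minus strand: CACgaaagaattCACacgggggagaaaccg
Zfp445, mm9 chr9:122762010-122762039, minus strand: CACcagaggattCATacaggggagaaaccg
Zfp808, mm9 chr13:62272853-62272882, plus strand: CATataagggtaCATactggagagaaaccc
Zfp568, mm9 chr7:30807959-30807988, plus strand: CACcagcgcatcCACactggggagaagcct
Zfp113, mm9 chr5:138586531-138586560, minus strand: CATcagagaatcCACactggagaaaaaccc
Zfp369, mm9 chr13:65398507-65398536, plus strand: CATaagaagatcCACacaggagagcggcct
Zfp523, mm9 chr17:28338277-28338306, plus strand: CATgtgcgcaccCACacaggcgagcggccc
Zfp865, mm9 chr7:4981331-4981360, plus strand: CACatgttagtgCACtccggggaacgacca
Zfp64, mm9 chr2:168752339-168752368, minus strand: CACatgcgtgtgCACtcgggggagaagcct
Zfp444, mm9 chr7:6141196-6141225, plus strand: CACcggcaaagcCACtccggtgagaagccg
In the transcript with the longest coding sequence, those of Zfp523 and Zfp865 lie in an internal exon and the others in the last exon. Reads and bins of the last exon refer instead to the last run of adjoining exon bins of the gene, which can be another exon. That run spans 404 bases in Zfp369 and 1203 in Zfp64, against 1733 and 1573 for the last exon of the transcript. Sequence shared with other genes limits the counting of reads. Whether the shared stretches lie in the fingers was not tested. In 7 members more than 10% of the 75-base windows of the transcripts, untranslated regions included, recurred in another gene, so the levels of these 7 are uncertain. The largest shares were in Zfp534 (47.5%), Zfp934 (31.2%), Zfp932 (27.1%) and Zfp738 (19.2%). In 120 members the share was under 1%.

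In control cells, the Zfp mRNAs were less abundant in the cytoplasm, relative to the whole cell, than protein-coding mRNAs above the same minimum level, by the medians. The ratio of the cytoplasmic to the whole-cell value had a median of 0.358 over the 143 members, with a range from 0.0148 to 2.55. The same ratio had a median of 0.894 over 8272 protein-coding genes at the same minimum level, and of 0.581 over 31 Zbtb, Zscan and Zkscan genes, which are other families of zinc finger genes. Of the members, 113 (79.0%) had a ratio below 1, against 54.5% of the protein-coding genes. The member median was 0.392 in replicate A and 0.334 in replicate B. The 2 fractions were scaled separately, so a ratio of 1 does not mean equal molecule numbers, and the ratios are set side by side with no test. Summed nuclear RNAs (Malat1, Neat1, Firre, Miat, Meg3, Rian and Mirg) stood at 38069 and 34914 in the control whole-cell libraries and at 3783 and 3403 in the control cytoplasmic libraries. Because of the separate scaling, these sums do not give the share of such RNA left in the cytoplasmic fraction. Over all cytoplasmic libraries, Rian ranged from 2061 to 3668 in A and from 1839 to 2859 in B. Malat1 ranged from 155 to 511 in A and from 51.4 to 89.8 in B, so it was higher in A.

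**Figure D1:**
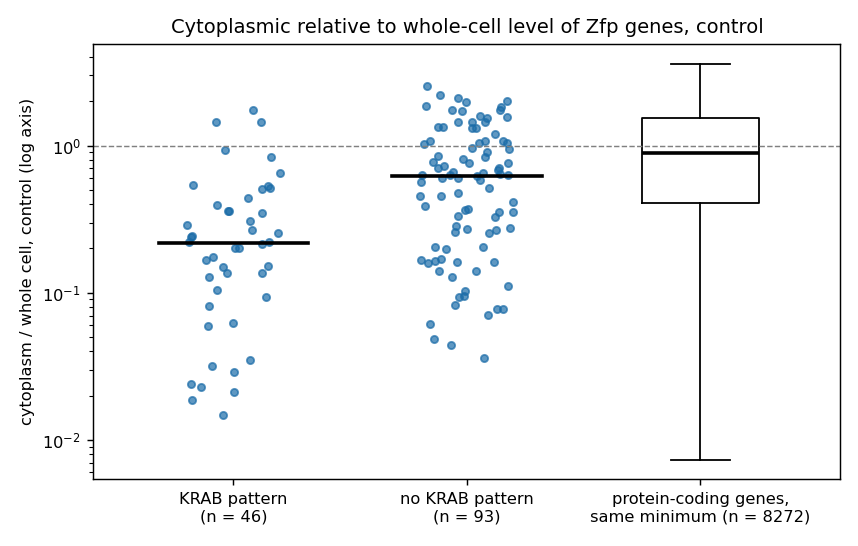
Ratio of cytoplasmic to whole-cell value in control cells on a log axis, 1 point per Zfp gene, for 46 genes with and 93 genes without a KRAB pattern, with a bar at each median. The box shows the quartiles and median of 8272 protein-coding genes at the same minimum level, with whiskers to the lowest and highest value, and the dashed line marks a ratio of 1. The KRAB genes sit lowest, with a median of 0.217 against 0.626 for the other Zfp genes.

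The low ratios were concentrated among the KRAB genes. Their median ratio was 0.217, and 43 of 46 were below 1, the exceptions being Zfp212 (1.44), Zfp777 (1.45) and Zfp13 (1.75). Members with no KRAB pattern had a median of 0.626, with 66 of 93 below 1. Leaving out the KRAB genes that share at least 20% of their windows with other genes left 43 genes with a median of 0.221. Ratios were also lower in members with 10 or more fingers. Members with up to 4 fingers had a median ratio of 0.632 (n = 30), those with 5 to 9 fingers 0.582 (n = 37), those with 10 to 14 fingers 0.221 (n = 42) and those with 15 or more 0.268 (n = 30). Among members with no KRAB pattern, the 37 with 10 or more fingers had a median of 0.519 and the 56 with fewer had 0.634. The difference between the finger classes was thus smaller among members without the pattern, some of which may still hold a KRAB domain.

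At the low end stood Zfp871, a KRAB gene with 15 fingers, at 2101 and 1391 in the control whole-cell libraries A and B but at 29.9 and 21.5 in the cytoplasmic libraries, a ratio of 0.0148. Zfp445, a KRAB protein that helps keep imprinted regions methylated, followed with 2480 and 1957 in the whole cell and 49.4 and 32.2 in the cytoplasm (ratio 0.0185). Next came Zfp534 (0.0211), Zfp934 (0.0228) and Zfp808 (0.0241), all 3 of them among the uncertain genes. At the high end Zfp444 had 988 and 1029 in the whole cell and 2405 and 2722 in the cytoplasm, a ratio of 2.55. Zfp358 (2.21), Zfp64 (2.1), Zfp574 (2.01) and Zfp511 (1.98) followed, none of them with a KRAB pattern. The replicates kept both ends apart: no ratio of the lowest 5 exceeded 0.0315 in either replicate, and none of the highest 5 fell below 1.83.

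Per length, using the FPKM value that the authors pooled over the replicates, the most abundant members in the control whole cell were Zfp106 (155), an RNA-binding zinc finger protein, Zfp207 (115), a protein of the mitotic spindle, and Zfp57 (71.1), the KRAB protein that protects imprinted methylation. Zfp738 (52.2, one of the genes with shared windows), Zfp317 (52.0), Zfp414 (51.8), Zfp639 (47.8) and Zfp598 (46.6), a ubiquitin ligase that senses collided ribosomes, came next. Their cytoplasmic ratios ranged from 0.0349 for Zfp738 to 1.87 for Zfp414.

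Members of known role were spread over the range. Of those that work outside transcription, Zfp598 was at 1.04, Zfp622, a factor of 60S ribosome maturation, at 1.73, and Zfp346, which binds double-stranded RNA, at 1.04. Zfp207 (0.601) and Zfp106 (0.369) were lower. Among regulators of transcription and chromatin, Zfp292 (0.0360), Zfp644 (0.0830), which works with the histone methyltransferase G9a, Zfp281 (0.0948), a repressor and activator in pluripotent cells, Zfp148 (0.111), Zfp462 (0.159), Zfp318 (0.164) and Zfp326 (0.168), a factor that couples transcription elongation and splicing, were low. Zfp451 (0.253), a SUMO ligase, Zfp91 (0.333), Zfp57 (0.351), Zfp143 (0.475), an activator of promoters, Zfp568 (0.508), Zfp521 (0.569), Zfp532 (0.629), Zfp217 (0.633) and Zfp110 (0.650) were intermediate. Zfp384 (1.19), Zfp592 (1.31), Zfp423 (1.33), a partner of EBF factors, Zfp706 (1.33), Zfp335 (1.34), a part of a histone methyltransferase complex, Zfp219 (1.54) and Zfp687 (1.59) were above 1. Neighbours in this order often differed by less than the gap between A and B, for example Zfp592 (1.21 and 1.42) and Zfp335 (1.28 and 1.40).

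SRSF3 knockdown changed more Zfp genes in the whole cell than any other knockdown did. By limma on all 16 whole-cell libraries, at an adjusted p below 0.05 over 18539 genes, 10 members rose and 9 fell, which is 13.3% of 143. Over all genes the same fit called 11.4% (5.88% higher and 5.56% lower), and over protein-coding genes at the same minimum level 13.0%, so the share of Zfp genes was close to the background. The members' median change on the log2(value + 1) scale was -0.07, beside -0.00293 over all genes. Of the 31 Zbtb, Zscan and Zkscan genes, 7 rose and 4 fell. The summed pluripotency markers were lowest in the SRSF3 libraries, at 51622 and 51262 in the whole cell against 64608 and 66911 in the controls, and at 99435 and 114010 in the cytoplasm against 134520 and 144320. Their part in the changes of the Zfp genes was not tested.

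Zfp113, a KRAB gene, rose the most clearly, from 719 and 734 in control A and B to 1405 and 1174 after SRSF3 knockdown (log2 change 0.81, SE 0.13, limma adjusted p = 0.00588). Zfp367 had the largest rise, from 826 and 782 to 1993 and 1145 (log2 0.90, SE 0.19, limma adjusted p = 0.0153). Both knockdown libraries were above both controls for each gene, and replicate A moved further than B. Zfp655 (log2 0.70), Zfp622 (0.69), Zfp488 (0.68), Zfp346 (0.60), Zfp473 (0.54), a component of the U7 particle that processes histone mRNA, Zfp180 (0.54), Zfp961 (0.52) and Zfp335 (0.47) rose as well. Zfp622 and Zfp346 were at 837 and 842 and at 1188 and 1162 in the controls, and reached 1732 and 1070 and 2149 and 1506 after the knockdown. On whole reads summed over exon bins, the edgeR quasi-likelihood test kept 15 of the 18 calls in genes with bins of their own. It lost Zfp488 (edgeR adjusted p = 0.38), Zfp219 (0.0646) and Zfp710 (0.0624).

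Zfp362 fell the most, from 602 and 698 in the controls to 223 and 392 (log2 change -1.14, SE 0.29, limma adjusted p = 0.0299). Zfp423 fell from 660 and 626 to 319 and 445 (log2 -0.78, SE 0.22, limma adjusted p = 0.0406). Zfp414 went from 788 and 877 to 407 and 619, and Zfp646 from 4028 and 3386 to 2000.1 and 2676. In each of these the knockdown libraries were below both controls, again with the lower value in A. Zfp710 (log2 -0.68), Zfp711 (-0.59), Zfp239 (-0.55), Zfp1 (-0.52) and Zfp219 (-0.45) fell less. Zfp711 was even between replicates, at 403 and 372 against 577 and 581.

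**Figure D2:**
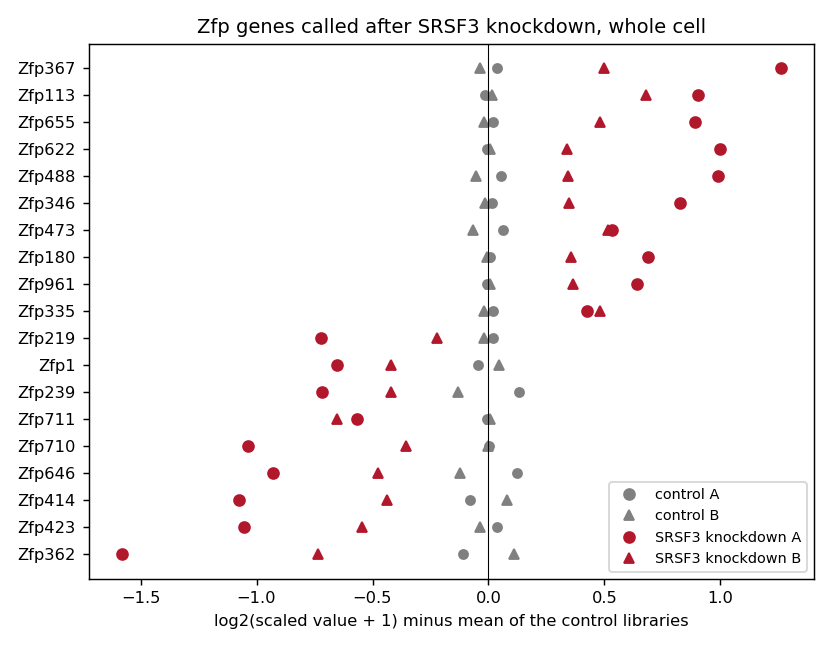
Whole-cell level of the 19 Zfp genes called after SRSF3 knockdown, as log2 of the scaled value plus 1 minus the mean of the control libraries. Circles are replicate A and triangles replicate B, grey for control and red for knockdown. In most genes the A knockdown library lies further from the controls than B, as in Zfp362 (-1.58 and -0.74) and Zfp367 (1.26 and 0.50).

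How many members passed depended on single libraries. Without the SRSF3 A library 0 members passed and without the SRSF3 B library 36. Without control A 1 passed, and without control B 3 did. The letters A and B paired the samples across groups, and with the letter as a block in the limma fit 24 members rose and 35 fell (41.3% of members), all 19 of the unblocked calls among them. The blocked fit called 33.2% of all genes (16.1% higher and 17% lower) and 40.6% of protein-coding genes at the same minimum level. Blocked calls included Zfp652 (log2 -0.73), Zfp704 (-0.81), Zfp292 (0.45) and Zfp143 (0.43), the first pair being named again below.

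After SRSF1 knockdown, 1 member passed in the whole cell. Zfp292, a large protein with 14 fingers in its last exon, stood at 2845 and 2470 in the controls and at 4922 and 4003 after the knockdown (log2 change 0.74, SE 0.15, limma adjusted p = 0.0450). Both knockdown libraries lay above all other whole-cell libraries. In the cytoplasm the same gene was at 97.7 and 92.7 in the controls and at 172 and 65.5 after SRSF1 knockdown, so there the groups overlapped. The background of this comparison was 0.804%. With the letter block 15 members rose and 10 fell (17.5%), against 10.9% of all genes (4.61% higher and 6.33% lower) and 14.3% of protein-coding genes at the same minimum level. Among those, Zfp335 rose from 820 and 797 to 1142 and 1056 (log2 0.44, limma adjusted p = 0.00786 with the block), and Zfp865 fell from 605 and 582 to 337 and 415 (log2 -0.66, limma adjusted p = 0.00317 with the block). Without control A, control B or the SRSF1 A library the Zfp292 call was lost. Zfp865 is taken up below for its last exon.

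No member passed the unblocked limma test in the whole cell after knockdown of SRSF2, SRSF4, SRSF5, SRSF6 or SRSF7, where the background was 0.0216%, 0%, 0%, 0% and 0.0162%. At an unadjusted p below 0.05, members higher and lower numbered 12 and 11, 1 and 0, 0 and 1, 0 and 5, and 5 and 3 in that order. The share of all genes at this unadjusted threshold was not counted, so these numbers cannot be set against a background. The edgeR test on summed exon-bin reads also called 0, and DESeq2 called 2 after SRSF2 knockdown. With the block, 8 members passed after SRSF2 knockdown (background 6.01%) and 1 after SRSF7 knockdown (background 1.09%). The largest of these was Zfp523, a relative of Zfp143, which fell from 644 and 708 in the controls to 208 and 343 after SRSF2 knockdown (log2 change -1.33, SE 0.14 with the block, limma adjusted p = 0.000259). Both libraries were the lowest of all 16 whole-cell libraries for this gene. The others after SRSF2 knockdown were Zfp358 (log2 -0.76), Zfp930 (-0.40), Zfp958 (-0.39), Zfp191 (-0.38), Zfp961 (0.35), Zfp292 (0.41) and Zfp760 (0.52), with blocked limma adjusted p from 0.00202 to 0.0419. After SRSF7 knockdown it was Zfp414 (log2 -0.55, blocked limma adjusted p = 0.0483).

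In the cytoplasm no member passed the unblocked limma test after any of the 7 knockdowns. The background over 17564 genes was 0.0455% for SRSF1, 0.529% for SRSF3 and 0% for the other 5. At an unadjusted p below 0.05, members higher and lower numbered 5 and 7 for SRSF1, 2 and 6 for SRSF2, 7 and 12 for SRSF3, 3 and 8 for SRSF4, 0 and 3 for SRSF5, 2 and 2 for SRSF6, and 1 and 2 for SRSF7. Here too the unadjusted share of all genes was not counted. The edgeR test on summed reads called 0 throughout, and DESeq2 called 3 for SRSF1, 5 for SRSF3 and 1 for SRSF7. The A and B cytoplasmic libraries differed more than the whole-cell ones, with a median SE of 0.29 against 0.14 on the log2 scale.

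With the letter block, 9 members rose and 12 fell in the cytoplasm after SRSF3 knockdown (14.7%), against 13.9% of all genes (7.19% higher and 6.76% lower). Zfp871, the gene with the lowest control ratio, rose from 29.9 and 21.5 to 273 and 71.1 (log2 change 2.41, SE 0.34 with the block, limma adjusted p = 0.000604). Its knockdown values were the highest of the A and of the B libraries, respectively, and A gave much the larger value. Zfp865 rose from 532 and 686 to 1401 and 1225 (log2 1.11, SE 0.17 with the block, limma adjusted p = 0.00082). Zfp386 (0.95), Zfp407 (0.68), Zfp961 (0.66), Zfp507 (0.63), Zfp408 (0.63), Zfp180 (0.62) and Zfp473 (0.45) rose as well by the blocked test. Zfp414 fell from 1457 and 1638 to 795 and 973 (log2 -0.82), and Zfp598 from 4452 and 4965 to 2433 and 3468 (log2 -0.70). The further falls were of Zfp362 (-0.66), Zfp646 (-0.62), Zfp710 (-0.59), Zfp692 (-0.58), Zfp1 (-0.57), Zfp110 (-0.55), Zfp423 (-0.54), Zfp623 (-0.47), Zfp12 (-0.45) and Zfp687 (-0.42), with blocked limma adjusted p from 0.0059 to 0.0496. Summed nuclear RNAs were at 5750 and 3408 in the SRSF3 A and B cytoplasmic libraries against 3783 and 3403 in the controls, so they were higher in A and level in B.

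Zfp369 rose in the cytoplasm after both SRSF1 and SRSF7 knockdown by the blocked test. It stood at 179 and 235 in the controls, at 445 and 422 after SRSF1 knockdown (log2 change 1.08, SE 0.17 with the block, limma adjusted p = 0.00219) and at 517 and 510.4 after SRSF7 knockdown (log2 1.29, SE 0.17, limma adjusted p = 0.00542). These 4 knockdown libraries held the highest values of all 16 cytoplasmic libraries. Its whole-cell values were 1072 and 962 in the controls, 1218 and 1161 after SRSF1 knockdown and 1155 and 1347 after SRSF7 knockdown, and the whole-cell change did not pass in either fit. The background of the blocked cytoplasmic fits was 5.91% for SRSF1 and 0.074% for SRSF7. After SRSF1 knockdown Zfp335 (log2 0.73) and Zfp608 (0.64) rose too, while Zfp639 (-0.63) and Zfp105 (-0.65) fell.

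After SRSF2 knockdown 3 members fell in the cytoplasm by the blocked test, with a background of 1.84%. Zfp523 went from 944 and 1395 to 435 and 641 (log2 change -1.12, SE 0.13 with the block, limma adjusted p = 0.00146), the lowest A and the lowest B value of this fraction. Zfp105 (-0.68) and Zfp692 (-0.65) were the other members. For SRSF4, SRSF5 and SRSF6, 0 members passed with the block in either fraction.

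**Figure D3:**
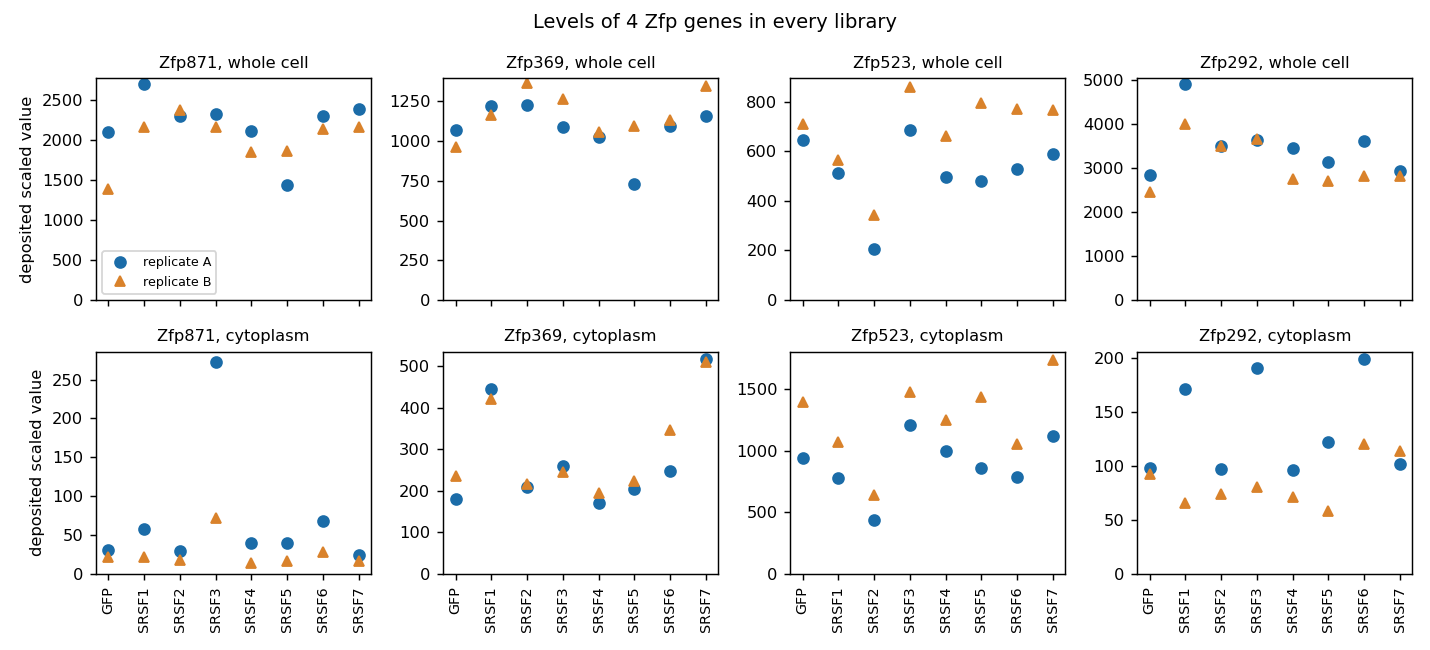
Deposited scaled values of Zfp871, Zfp369, Zfp523 and Zfp292 in the 16 whole-cell libraries (top) and the 16 cytoplasmic libraries (bottom), with each axis starting at 0. Blue circles are replicate A and orange triangles replicate B. Zfp523 is lowest after SRSF2 knockdown in both fractions, Zfp369 is highest in the cytoplasm after SRSF1 and SRSF7 knockdown, and the cytoplasmic Zfp871 value after SRSF3 knockdown is 273 in A and 71.1 in B.

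The cytoplasmic change relative to the whole-cell change was tested over all 32 libraries. No member passed unblocked after any knockdown, with a background of 0.00521% over 19183 genes for SRSF3 and 0% for the other 6. At an unadjusted p below 0.05, 6 members were higher and 1 lower for SRSF3, and no other knockdown had more than 3. Again, all genes were not counted at that threshold. Neither edgeR nor DESeq2 called a member. With the block, 3 members had a higher relative cytoplasmic level after SRSF3 knockdown, against 0.672% of all genes. Zfp871 had the largest difference (log2 2.03, SE 0.35 with the block, limma adjusted p = 0.00491), with whole-cell values of 2321 and 2163 against 2101 and 1391 in the controls. Zfp652 (log2 0.95) and Zfp704 (0.82) differed through their whole-cell levels. Zfp704 fell from 2066 and 2040 to 949 and 1460 in the whole cell and stood at 690.0 and 664 against 682 and 659 in the cytoplasm. Zfp652 went from 4153 and 3782 to 1933 and 2999 in the whole cell, against 1158 and 889 and then 1324 and 1073 in the cytoplasm. Zfp652 shares 11.2% of its windows with other genes and overlaps another gene in the exon annotation, so its values are less certain.

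The median change of the members was described for each knockdown. Whole-cell medians lay between -0.07 (SRSF3) and 0.08 (SRSF7) on the log2 scale. In the cytoplasm the median change was -0.25 after SRSF4 knockdown, with 105 of 143 members below 0, and 0.11 after SRSF6 knockdown, with 91 above 0. It was 0.03 after SRSF3 knockdown, and -0.13, -0.14, -0.13 and -0.14 after SRSF1, SRSF2, SRSF5 and SRSF7 knockdown. Protein-coding genes at the same minimum level had cytoplasmic medians between -0.03 (SRSF4) and 0.04 (SRSF6). Single libraries decided several of these member medians. Without the knockdown B library those of SRSF1, SRSF2 and SRSF5 became 0.16, 0.08 and 0.01. That of SRSF3 lay between -0.19 (without knockdown A) and 0.37 (without knockdown B), and that of SRSF6 was 0.0050 without control B. The SRSF4 median lay between -0.35 and -0.11 and the SRSF7 median between -0.23 and -0.04 as each library was left out. Relative to the whole cell, the median was -0.26 for SRSF4, -0.20 for SRSF7 and 0.15 for SRSF6, while protein-coding genes at the same minimum level had medians of -0.03, -0.05 and 0.02. The 31 Zbtb, Zscan and Zkscan genes had medians of -0.15 for SRSF4, -0.20 for SRSF7 and 0.04 for SRSF6, so the SRSF7 value was nearly that of the Zfp genes. Leaving out each library in turn, the members had -0.29 to -0.18 for SRSF4, -0.26 to -0.11 for SRSF7 and 0.06 to 0.21 for SRSF6. These 3 relative medians had the same sign in A and in B (-0.25 and -0.17, -0.20 and -0.16, and 0.15 and 0.15). Those of SRSF1 (0.05 and -0.22), SRSF2 (0.04 and -0.23) and SRSF3 (0.28 and -0.05) changed sign between the replicates, and that of SRSF5 was -0.01 and -0.19. The KRAB genes had the larger medians, with relative medians of -0.34 against -0.19 for SRSF4 and 0.23 against 0.05 for SRSF6. Summed nuclear RNAs in the cytoplasmic libraries were 3489 and 2505 after SRSF4 knockdown, 4094 and 3573 after SRSF6 knockdown and 4548 and 3768 after SRSF7 knockdown, against 3783 and 3403 in the controls. Their part in the members' shifts was not tested.

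**Figure D4:**
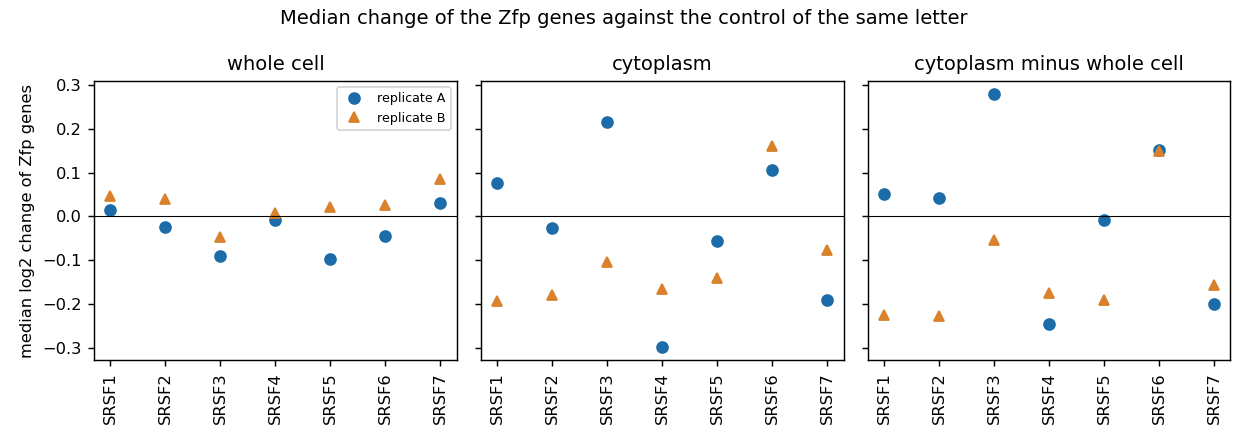
Median log2 change of the 143 Zfp genes after each knockdown, computed within replicate A (circles) and within replicate B (triangles) against the control of the same letter. Panels show the whole cell, the cytoplasm and the difference of both. The letters agree in sign for SRSF4, SRSF5 (-0.01 in A and -0.19 in B), SRSF6 and SRSF7 in the difference panel and part for SRSF1, SRSF2 and SRSF3.

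Last exons were examined because in KRAB genes they hold the fingers and the 3′ end together. The authors' exon bins (mm10) were tested with limma diffSplice in the 2 knockdown and 2 control libraries of a comparison, at an adjusted p below 0.1. The log2 value of a bin is its change relative to the other bins of its gene. Between 111 and 128 members had a testable last-exon bin in each comparison, and 6 members were left out because their bins are shared with an overlapping gene. In the whole cell 2 members had a changed last-exon bin after SRSF3 knockdown and 0 after the others, where 1.1% of all last-exon bins were called for SRSF3, 0.536% for SRSF1, 0.139% for SRSF2, 0% for SRSF4 and SRSF5, 0.00425% for SRSF6 and 0.206% for SRSF7. In the cytoplasm 4 members had one after SRSF3 knockdown and 1 after SRSF1 knockdown, and 0 after the others. The background there was 2.05% for SRSF3, 0.44% for SRSF1, 0.0142% for SRSF2, 0% for SRSF4 and SRSF5, 0.00922% for SRSF6 and 0.111% for SRSF7. These backgrounds are shares of bins, not of genes. Counted by bins, the members had 2 of 282 called in the whole cell after SRSF3 knockdown (0.709%). In the cytoplasm they had 4 of 254 after SRSF3 knockdown (1.57%) and 1 of 241 after SRSF1 knockdown (0.415%). At an unadjusted p below 0.05 the number of last-exon bins of members ranged from 3 to 30 per comparison, and edgeR's exon test called no member in any comparison but SRSF3. All last-exon bins were not counted at that unadjusted threshold.

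The last exon of Zfp865 (mm10 chr7:5032763-5033138, plus strand, 376 bases) changed the most. This gene encodes 20 fingers, all outside its last exon. After SRSF3 knockdown the whole-cell libraries held 347 and 360 reads in the bin, against 52 and 75 in the controls (log2 2.70, SE 0.24, limma diffSplice adjusted p = 1.28e-05). In the cytoplasm the reads were 924 and 1134 against 66 and 104 (log2 3.36, SE 0.34, limma diffSplice adjusted p = 0.000302). The bin thereby held 64.5% and 61.1% of the exon-bin reads of the gene in the cytoplasm, against 12.9% and 13.3% in the controls. No other knockdown library of either fraction had more than 16.3%. The bins upstream fell relative to the gene: mm10 chr7:5028991-5031279 by log2 -1.38 in the whole cell and -1.91 in the cytoplasm, and chr7:5031280-5032207 by -1.66 and -2.25. In reads not adjusted for depth, the larger of them held 436 and 575 in the cytoplasm against 379 and 554 in the controls, while the gene total went from 512 and 784 to 1433 and 1856, so most of the added Zfp865 reads lay in the last exon. The counting is not stated to use strand, so reads of an antisense transcript cannot be told apart.

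The other last-exon bins called after SRSF3 knockdown in the cytoplasm fell relative to their genes. In Zfp266 and Zfp568 the called bin is part of the last exon (3997 of 5410 bases and 3171 of 6065 bases), and the whole last exon, which held 85.0% and 94.6% of their control cytoplasmic reads, was not tested. In Zfp236 the bin is the whole last exon. In Zfp266, a KRAB gene with 9 fingers, the called bin (mm10 chr9:20495068-20499064, minus strand) is as long as its 3′UTR in the mm9 annotation, and held 310 and 173 of 854 and 647 gene reads, or 36.3% and 26.7%, against 67.3% and 59.2% in the controls (log2 -1.97, SE 0.45, limma diffSplice adjusted p = 0.0579). In Zfp568, a KRAB repressor needed in the mouse embryo (mm10 chr7:30025112-30028282, plus strand), it held 57.8% and 68.3% against 77.2% and 82.0% (log2 -1.28, SE 0.29, limma diffSplice adjusted p = 0.0282). The same Zfp568 bin fell after SRSF1 knockdown, to 59.9% and 73.0% (log2 -1.05, SE 0.21, limma diffSplice adjusted p = 0.0143). Its share was also below both controls after SRSF2 (69.1% and 76.2%) and SRSF6 knockdown (67.0% and 76.5%). After SRSF4, SRSF5 and SRSF7 knockdown it overlapped them. The Zfp266 share was below both controls after SRSF1, SRSF2, SRSF4, SRSF5 and SRSF6 knockdown as well, at 48.2% to 59.05%. Only after SRSF7 knockdown did it overlap the controls. In Zfp236 the share was 31.0% and 27.3% against 49.6% and 46.6% (log2 -1.18, limma diffSplice adjusted p = 0.00842). In the whole cell the shares of these same bins of Zfp568 and Zfp266 overlapped between SRSF3 knockdown and control (38.4% to 40.2% against 35.2% to 42.9%, and 49.6% to 50.2% against 49.0% to 54.6%). The whole-cell call beside Zfp865 was Zfp444, whose bin at mm10 chr7:6190423-6191349 rose from 40 and 59 reads to 98 and 104 (log2 1.05, limma diffSplice adjusted p = 0.0585).

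**Figure D5:**
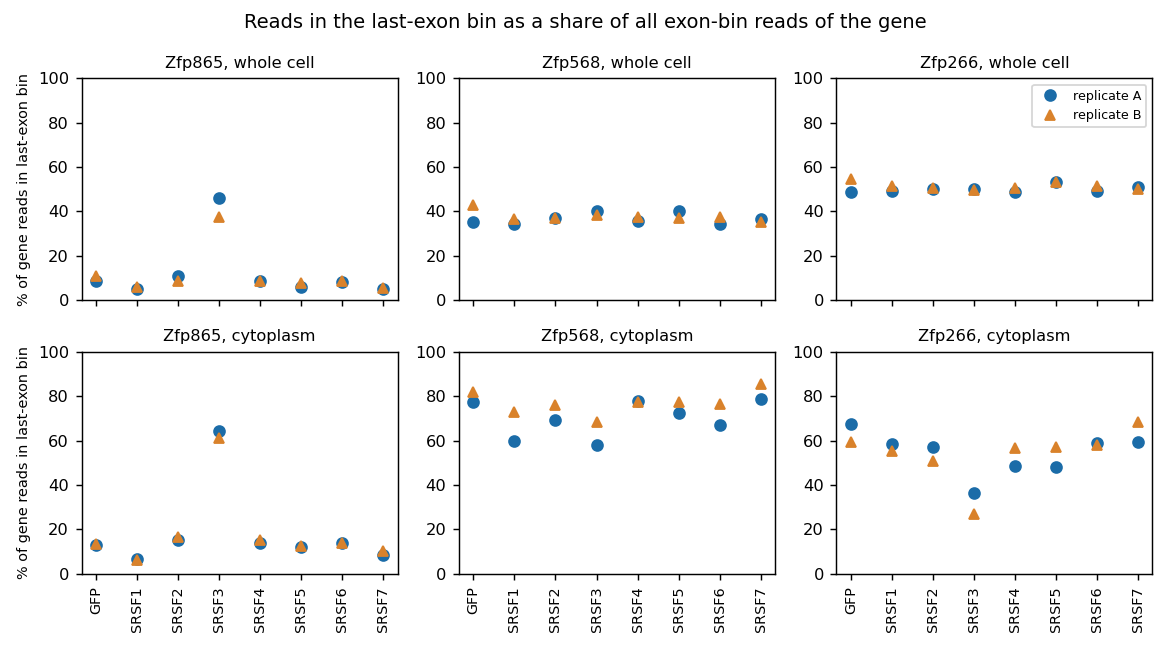
Reads in the last-exon bin as a percentage of all exon-bin reads of Zfp865, Zfp568 and Zfp266, in the whole cell (top) and the cytoplasm (bottom), for every library. Blue circles are replicate A and orange triangles replicate B. Zfp865 reaches 64.5% and 61.1% in the cytoplasm after SRSF3 knockdown, while Zfp266 drops there to 36.3% and 26.7%.

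With the letter block, 13 members had a changed last-exon bin in the cytoplasm after SRSF3 knockdown (background 6.16%), 7 after SRSF1 knockdown (2.98%) and 1 after SRSF7 knockdown (1.12%). In the whole cell there were 3 after SRSF3 knockdown (1.22%), 1 after SRSF1 knockdown (0.911%) and 1 after SRSF2 knockdown (0.301%). These backgrounds too are shares of bins. Counted by bins, the members had 13 of 254, 7 of 241 and 1 of 243 called in the cytoplasm, in that order. Their whole-cell bins numbered 3 of 282, 1 of 275 and 1 of 277. Of the 13 members called in the cytoplasm after SRSF3 knockdown, the Zfp865 bin rose and those of the other 12 fell relative to their genes. Among the falls were Zfp26 (-1.95), Zfp462 (-1.15), Zfp64 (-1.10), Zfp949 (-0.94), Zfp60 (-0.95), Zfp106 (-0.89) and Zfp217 (-0.80). The 7 bins of SRSF1 all fell, including Zfp865 itself, whose last exon held 26 and 38 reads against 66 and 104 (log2 -1.17, limma diffSplice adjusted p = 0.0934 with the block). The direction over all called last-exon bins was not counted, and every knockdown shares the same controls. For Zfp236 (49.6% and 46.6% in the controls) the share was also lower after SRSF2 (39.7% and 38.9%), SRSF4 (43.2% and 41.6%) and SRSF5 knockdown (43.0% and 41.8%). After SRSF6 (36.8% and 47.1%) and SRSF7 knockdown (44.9% and 54.4%) it overlapped the controls. In the whole cell a last-exon bin of Zfp945 rose relative to the gene after SRSF1 (0.76) and SRSF2 knockdown (0.77), and that of Zfp64 fell after SRSF3 knockdown (-1.41). The Zfp945 bin held 28.9% and 24.3% of the gene's reads after SRSF1 knockdown and 32.8% and 21.9% after SRSF2 knockdown. The controls held 22.1% and 13.8%, so the SRSF2 shares overlapped them. Without the block its limma diffSplice adjusted p was 0.154 for SRSF1 and 0.763 for SRSF2. Zfp655 (-1.01) was the member called after SRSF7 knockdown. Unblocked counts depended on single libraries. Without the SRSF3 A library, control A or control B the whole-cell SRSF3 count was 1, and without control A the whole-cell SRSF1 count was 2. In the cytoplasm the SRSF3 count was 1 without control A or control B, the SRSF1 count was 0 without either of these or the SRSF1 A library, and the other 5 knockdowns had 3 in all without their B library.

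Isoform shares were read from deposited MISO estimates on pooled replicates, a Bayesian estimate of the share of an isoform with its interval, both given here in percent. They covered 52 pairs of alternative last exons in 28 members and 12 tandem 3′UTR pairs in 12 members in the whole cell. Pooling leaves no replicate error, so these are descriptions. Changes of 20 points or more were seen in 6 of all member comparisons. In the cytoplasm after SRSF3 knockdown the share of the first-listed last exon of Zfp451 went from 15% (10 to 22) to 44% (37 to 52), and that of 1 pair of Zfp64 from 91% (86 to 94) to 69% (60 to 76). For Zfp410 it went from 30% (7 to 55) to 66% (32 to 92) after SRSF4 knockdown, 61% (26 to 94) after SRSF5 knockdown and 50% (9 to 93) after SRSF6 knockdown, with intervals that overlap throughout. In the whole cell the first-listed form of the Zfp952 tandem 3′UTR went from 9% (4 to 19) to 29% (15 to 47) after SRSF7 knockdown, also with overlapping intervals. Over all genes, 4.36% of alternative last exon pairs changed by that much in the cytoplasm after SRSF3 knockdown, beside 2 of 51 member pairs. The shares over all genes were 3.79%, 3.44% and 3.1% after SRSF4, SRSF5 and SRSF6 knockdown, beside 1 of 51 member pairs each, and 1.96% of whole-cell tandem pairs after SRSF7 knockdown, beside 1 of 12.

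The corepressors and heterochromatin proteins with which KRAB proteins act were measured by the same fits. Of 24 genes listed, 3 fell and 0 rose in the whole cell after SRSF3 knockdown, and 0 passed in any other unblocked comparison. This is near the 11.4% of all genes called in the same fit. Chd3, a remodeller of the NuRD complex, fell from 1524 and 1389 to 565 and 763 (log2 change -1.16, SE 0.21, limma adjusted p = 0.00873). Atrx, a remodeller that deposits histone H3.3, fell from 10147 and 8749 to 7059 and 7423 (log2 -0.39, limma adjusted p = 0.0458), and Suv39h2, a histone H3 lysine 9 methyltransferase, fell by 0.36 (limma adjusted p = 0.0348). Trim28 itself did not pass in any comparison. With the block 4 rose and 6 fell after SRSF3 knockdown in the whole cell, near the 40.6% of protein-coding genes at the minimum level of the members. Among them were Setdb1 (log2 0.35), Hdac1 (0.51) and Uhrf1 (0.36), which rose, and Chd3, which fell in the cytoplasm too (log2 -1.04, limma adjusted p = 0.00244 with the block).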

How the data were processed

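Whole-cell and cytoplasmic poly(A)+ RNA-seq of P19 cells was analysed from the deposited tables. Per the labels, the authors aligned with Bowtie2 2.1.0 under TopHat2 (2.0.9 or 2.0.10) after CASAVA 1.8.2 and cutadapt, and ran Cufflinks 2.1.1, on builds mm10 and mm9. The authors' gene tables hold read counts scaled between libraries (a signal, not whole reads), the authors' FPKM tables are pooled per group, the deposited exon-bin tables hold scaled counts (signal) from which whole reads were recovered, and the deposited MISO tables hold isoform fractions with pooled replicates, given here in percent. Columns with the authors' own comparisons (fold changes, p-values) were not used.

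Gene values were TMM-scaled, low values filtered (filterByExpr), and log2(value + 1) was fitted with limma 3.58.1 and a variance trend on all 16 libraries of a fraction (32 for the relative level), with Benjamini-Hochberg adjustment over all genes. Fold changes are on that log2 scale and understate low genes. For diffSplice, bins needed a mean of 5 or more. Adjusted p below 0.05 (bins 0.1) was called. 7 cytoplasmic and 6 whole-cell genes listed at 0 despite at least 100 bin reads were left out, none a member. The letters A and B paired the samples: Spearman correlations of A minus B differences between the 28 pairs of groups were 0.238 to 0.814 (whole cell, 12644 genes) and 0.449 to 0.827 (cytoplasm, 11792 genes), so fits with the letter as a block are given where they change a call. The letters come from the sample titles. The labels do not say whether replicates were separate cultures, so p-values measure only the spread between these samples.

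Fingers and KRAB patterns were read from GENCODE vM1 (mm9) transcripts instead of RefSeq proteins, and each printed sequence equals the mm9 genome. Members and lists were chosen with earlier results of these data known. Genes were named by role, abundance (8 highest), ratio (5 at each end), largest calls (up to 8 each way), called last exons and isoform changes of at least 20 points. Further genes named from blocked fits (Zfp652, Zfp704, Zfp143, Zfp335, Zfp865 and some last exons) were chosen after their values were seen. Statistics used R 4.3.3, edgeR 4.0.16, DESeq2 1.42.0 and Python 3.11.15, and were tested on simulated data.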

Additional observations from a re-analysis of the deposited data

Results flagged for a closer look

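For 3 members the change in the cytoplasm differed from that in the whole cell after SRSF3 knockdown when the letters A and B were a block in the limma interaction test. The cytoplasmic minus whole-cell log2 change was 2.03 for Zfp871, 0.95 for Zfp652 and 0.82 for Zfp704 (limma adjusted p = 0.00491, 0.0206 and 0.0394 with the block). All 3 had an adjusted p of 1 without the block. For Zfp871 the value ranged from 1.10 to 2.93 as single libraries were left out. With 2 libraries per group, single libraries that stand apart could not be looked for by a gap test.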

How the results depend on the processing

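With the replicate block, members changed in the whole cell numbered 25 (SRSF1), 59 (SRSF3) and 9 (other 5 knockdowns) against 1, 19 and 0 without it. In the cytoplasm they were 5, 21 and 4 against 0, in relative level 3 for SRSF3 against 0, and last-exon counts were 7, 13 and 1 (cytoplasm) and 1, 3 and 1 (whole cell) for SRSF1, SRSF3 and the other 5. Leaving out 1 library gave 0 to 36 members for SRSF3 and 0 to 1 for SRSF1 in the whole cell, and 0 to 1 for SRSF3 in the cytoplasm. For last exons it gave 0 to 3 for the other 5 and 0 to 1 for SRSF1 in the cytoplasm, 1 to 5 for SRSF3 in the cytoplasm, and 0 to 2 for SRSF1 and 1 to 2 for SRSF3 in the whole cell. With only the libraries of a comparison, 0 members passed for SRSF1 and SRSF3 in the whole cell, and with no filter 0 passed for SRSF1. On whole reads of exon bins summed per gene, a test chosen after seeing the data, DESeq2 called 6 (SRSF1) and 2 (other 5) in the whole cell and 3, 5 and 1 in the cytoplasm. For last exons in the whole cell after SRSF3 knockdown the count was 1 at an adjusted p below 0.05, 4 with all 16 libraries and 1 with edgeR's exon test, which gave 0 (SRSF1) and 1 (SRSF3) in the cytoplasm. The cause was not tested. Scaling by DESeq2 size factors or not at all, a pseudocount of 8 and choosing members by all 16 libraries left every count within 1.5 times. The median control ratio was 0.356 as deposited, 0.392 in A and 0.334 in B. The planned edgeR and DESeq2 tests on the gene tables were not run, because those values do not come out whole. With 2 libraries per group, small changes were not detectable, and more so in the cytoplasm, where the spread was wider.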
